A study of Homo sapiens with 6 samples.

Results

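The subunits and assembly factors of the mTOR complexes were examined at the RNA level in HCC2814 cells in which MLST8 had been targeted. The set was 10 genes matched by symbol among the 17448 listed, namely MLST8, MTOR, RPTOR, RICTOR, MAPKAP1, AKT1S1, DEPTOR, PRR5, TELO2 and TTI1, and all 10 passed the filter on low counts. HCC2814 is a human lung squamous cell carcinoma (LUSC) line. RNA-seq was performed on 3 WT samples, which carry a non-targeting guide (sgCtrl), and on 3 MLST8-KO samples (genotype label mLST8 KO), which carry a guide against MLST8 (sgmL8), all grown in DMEM with serum and sequenced from polyA-selected RNA. In the study's methods guides against MLST8 were carried by lentiCRISPR v2, which brings Cas9 with the guide, and per the labels both groups went through antibiotic selection. The vector and drug of the HCC2814 controls were not given in the sources used here. No isolation of single clones is described for HCC2814, and the position of any guide's cut was not given in the sources used here. A western blot legend of the study lists 3 numbered sgControl and 3 numbered sgMLST8 entries. Whether the sequenced replicates of a group carry the same guide was not given. The question was whether the RNA of the partner subunits and assembly factors changed beside that of MLST8.

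mTOR is a serine/threonine kinase of the PI3K-related (PIKK) family that works in a pair of complexes. mTORC1, built on the scaffold RPTOR, senses nutrients and drives protein and lipid synthesis, and mTORC2, built on RICTOR and MAPKAP1 (SIN1), phosphorylates AKT and other AGC kinases. MLST8 is a WD-repeat protein bound to the kinase domain of mTOR in both complexes, and it is needed for the integrity of mTORC2. TELO2 and TTI1 form the TTT co-chaperone with TTI2, which hands newly made PIKKs to HSP90 for folding and complex assembly.

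The libraries held between 14381673 and 15744154 estimated counts. The unit CPM stands for counts divided by library size after TMM scaling in edgeR. All 8 squamous epithelium markers, TP63 and KRT5 among them, were present and higher in MLST8-KO cells by edgeR's test, though TP63, KRT5, KRT6A and DSG3 lost the call in 2 to 4 of the 6 fits that left out a sample. Their summed level was 12553 to 18596 CPM in WT and 21278 to 23641 CPM in MLST8-KO samples. MLST8-KO replicate 1 stood apart: 41 genes had at least 20 counts there and at least 5 times the level of every other library, against 0 or 1 such gene in each of the others. Its 6 hepatocyte markers, which include ALB and APOB, summed to 234 CPM, against 0.505 to 6.50 CPM in the other 5 libraries. Summed fibroblast markers were 31.5 to 33.8 CPM in WT and 32.9 to 36.8 CPM in MLST8-KO samples, and endothelial markers stayed at or below 3.65 CPM. Leukocyte markers summed to 53.5 to 78.3 CPM in WT and 40.6 to 55.2 CPM in MLST8-KO samples, with PTPRC and LYZ under 1 CPM. The 4 lung adenocarcinoma and alveolar markers listed summed to 1.80 to 4.05 CPM in WT and 8.96 to 10.7 CPM in MLST8-KO samples. Nearly all of that was NKX2-1, with a mean of 2.80 CPM in WT and 9.87 CPM in MLST8-KO samples. The other 3, NAPSA, SFTPB and SFTPA1, were under 1 CPM in every library. The part of these differences in the results below was not tested, and results whose call changes without MLST8-KO replicate 1 are also given without it.

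MLST8 RNA was lower in the MLST8-KO cells, at 51.3% of the WT level, and remained readily detected. The gene (Entrez 64223) lies on the plus strand at chr16:2204248-2209416 (GRCh38), and GENCODE lists 35 transcripts of it, of which 10 are protein coding, 8 are marked for nonsense-mediated decay, 12 retain an intron and 5 are other processed transcripts. Across replicates 1 to 3, MLST8 received 874, 827 and 842 counts in WT and 396, 629 and 401 in MLST8-KO cells. Every MLST8-KO sample lay below every WT sample, and MLST8-KO replicate 2 kept more MLST8 RNA than the other two. In CPM, WT samples had 58.6 ± 1.97 (SD, n = 3) and MLST8-KO samples 30.0 ± 7.65 (SD, n = 3). This was a log2 fold change of -0.96 (SE 0.15, 95% interval -1.29 to -0.63), and the adjusted p was 0.00339 by edgeR's quasi-likelihood test, adjusted by Benjamini-Hochberg over the 12951 genes tested. Set against the WT mean, the MLST8-KO replicates stood at 43.6%, 66.4% and 43.8% in CPM. Leaving out any 1 of the 6 samples gave log2 fold changes of -1.19 to -0.86, and the fall passed the threshold each time. The counts cover the whole gene and do not show whether a transcript still codes for protein, and in bulk RNA fewer cells with an edited allele and less RNA per edited cell cannot be told apart. At the protein level, the study reported that mTOR's association with RICTOR was disrupted in HCC2814 MLST8-KO cells and that with RAPTOR was kept. It also reported less AKT phosphorylation at a site used by mTORC2, and no effect on that of S6K1, a substrate of mTORC1. MLST8 overlaps BRICD5 on the opposite strand by 164 bases, and BRICD5 had 28, 27 and 32 counts in WT and 16.2, 19 and 31 counts in MLST8-KO samples, few beside those of MLST8.

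**Figure D1:**
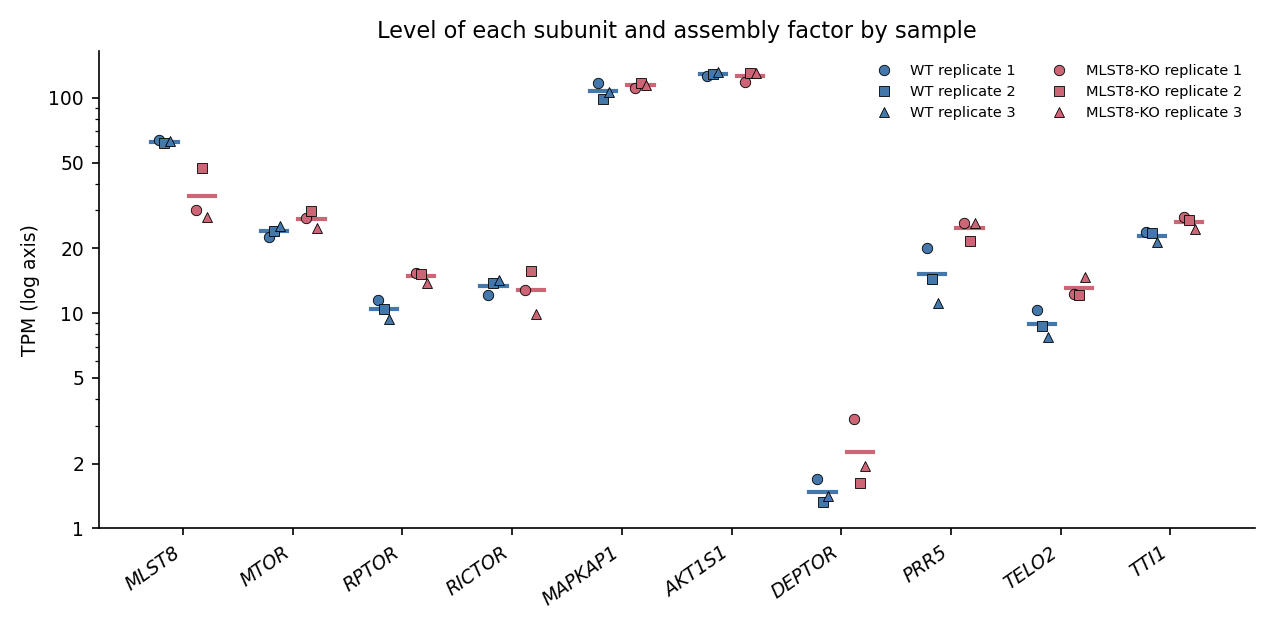
TPM of the 10 genes in each sample on a log axis, with WT in blue, MLST8-KO in red, marker shapes for replicates 1 to 3 and a horizontal bar for each group mean. MLST8 went from a mean of 62.6 TPM in WT to 35.1 TPM in MLST8-KO samples with no overlap, RPTOR from 10.5 to 14.8 and TELO2 from 8.95 to 13.0.

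Among the 9 partner subunits and assembly factors, 3 were higher in MLST8-KO cells by edgeR's test (RPTOR, PRR5 and TELO2), 0 were lower and 6 did not pass the threshold. The count of 0 lower genes was also 0 at an unadjusted p under 0.05 with all 6 samples (1, RICTOR, without MLST8-KO replicate 2), and DESeq2 and limma on TPM (a level the authors scaled for gene length and depth) gave 3 higher and 0 lower as well. The count of 3 higher fell to 1, RPTOR, without WT replicate 2, MLST8-KO replicate 1 or MLST8-KO replicate 3, and to 2 without WT replicate 3. Of all genes tested, 32.0% passed the threshold, 16.3% higher and 15.7% lower, so a share of 33.3% among the 9 partners was close to that of the whole table. Without MLST8-KO replicate 1, 14% of all genes tested passed (979 higher and 850 lower of 13071) and 1 of the 9 partners. Their median log2 fold change was 0.11, against 0.0045 over all genes tested, and the range was -0.18 to 0.60. RPTOR and TELO2 were the partners in which every MLST8-KO sample exceeded every WT sample, a separation seen in 24.8% of all genes in that direction and in 24.2% in the other. No partner fell to the extent of MLST8: the lowest bound of any partner's 95% interval was -0.47, for RICTOR.

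**Figure D2:**
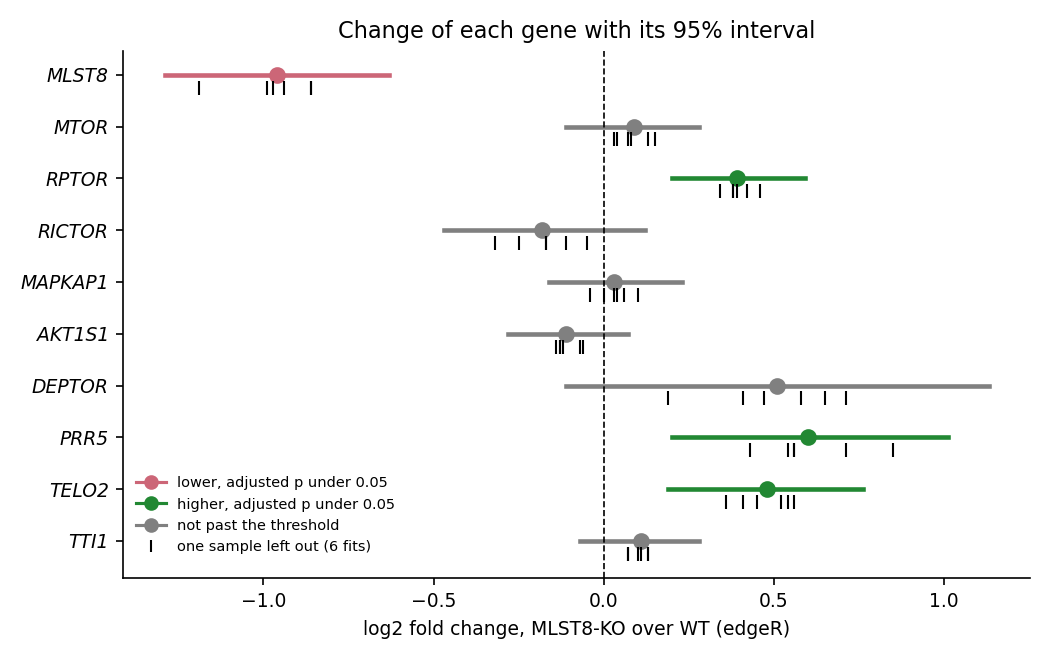
Log2 fold change of each of the 10 genes in MLST8-KO over WT cells, with points for the edgeR estimate and lines for the 95% interval; colours mark genes past an adjusted p of 0.05 and small ticks the 6 fits that each left out 1 sample. MLST8 sits at -0.96, RPTOR at 0.39, PRR5 at 0.60 and TELO2 at 0.48, and the intervals of the other 6 genes cross 0.

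The scaffold of mTORC1, RPTOR (Raptor; Entrez 57521, chr17:80544819-80966371, plus strand), which brings substrates to the kinase, was higher in the MLST8-KO cells. It had 642, 565 and 501 counts in WT replicates 1 to 3 and 818, 843 and 778 counts in MLST8-KO replicates 1 to 3. All MLST8-KO samples lay above all WT samples, at 51.6 ± 1.55 against 39.2 ± 3.23 CPM (SD, n = 3 each). The rise was 1.31-fold (95% interval 1.15 to 1.5), or 0.39 on the log2 scale (SE 0.09), with an adjusted p of 0.00965 by edgeR's test. It passed the threshold in all 14 alternative analyses, and the adjusted p was closest to the threshold, at 0.0493, without MLST8-KO replicate 1. Antisense transcripts are annotated within RPTOR and were not analysed here.

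RICTOR, the scaffold of mTORC2 (Entrez 253260, chr5:38937919-39074408, minus strand), had no change past the threshold. WT replicates 1 to 3 held 955, 1032 and 1062 counts and MLST8-KO replicates 1 to 3 held 960, 1203 and 787 counts. The groups overlapped, since MLST8-KO replicate 2 was among the highest of the 6 in CPM and MLST8-KO replicate 3 was the lowest. Levels were 70.3 ± 6.67 CPM in WT and 62.2 ± 12 CPM in MLST8-KO samples (SD, n = 3 each), a log2 fold change of -0.18 (SE 0.13, 95% interval -0.47 to 0.12) with an adjusted p of 0.325 by edgeR's test. Leaving out 1 sample gave -0.32 (without MLST8-KO replicate 2, adjusted p = 0.0936) to -0.05. The gene overlaps OSMR on the other strand by 7678 bases, and the sources used here do not say whether reads were counted by strand. OSMR had 2252, 1860 and 1695 counts in WT replicates 1 to 3 and 2083, 2475 and 2101 in MLST8-KO replicates 1 to 3. Those counts exceeded RICTOR's in every library, and the part of OSMR reads in the RICTOR counts was not tested.

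Ratios of TPM set the subunits against each other within each library. The RPTOR to RICTOR ratio was 0.954, 0.760 and 0.662 in WT replicates 1 to 3, and 1.19, 0.976 and 1.39 in MLST8-KO replicates 1 to 3. The lowest MLST8-KO ratio was just above the highest WT ratio. The mean log2 ratio differed by 0.59, with p = 0.1 in an exact two-sided permutation test, the smallest value that 3 against 3 samples allow. For MLST8 to MTOR the ratio was 2.82, 2.55 and 2.47 in WT and 1.08, 1.58 and 1.13 in MLST8-KO samples. These groups were well apart, with a log2 difference of -1.07 and again the smallest possible exact permutation p of 0.1, so neither ratio could pass 0.05 in this design. Leaving out each sample in turn gave 0.46 to 0.73 for RPTOR to RICTOR and -1.24 to -0.97 for MLST8 to MTOR.

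**Figure D3:**
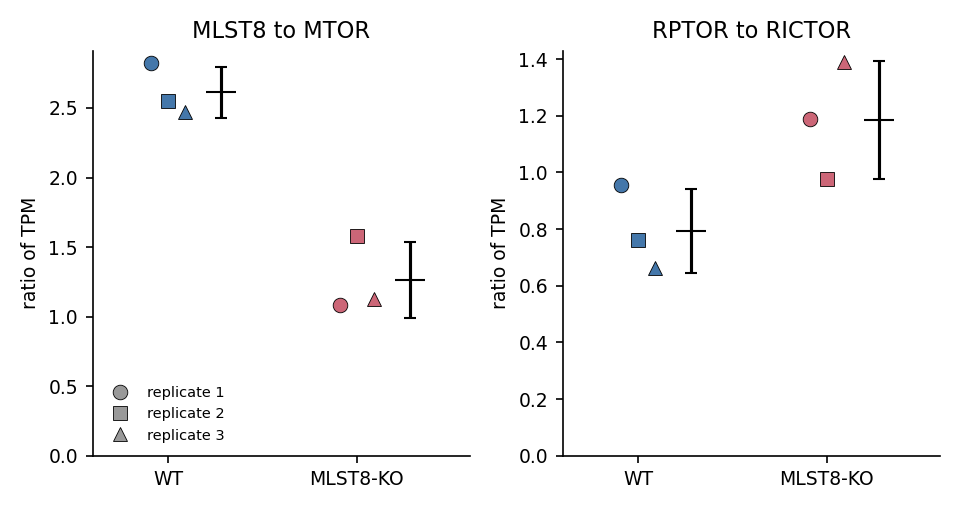
Ratios of TPM within each library, MLST8 to MTOR and RPTOR to RICTOR, with marker shapes for the replicate and bars for the group mean with the SD (n = 3). MLST8 to MTOR was 2.61 ± 0.184 in WT and 1.26 ± 0.275 in MLST8-KO samples, and RPTOR to RICTOR was 0.792 ± 0.148 and 1.19 ± 0.209.

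The sequences upstream of RPTOR, RICTOR and TELO2 are shown because the 2 complex scaffolds had different outcomes and TELO2 was also called higher. The table of RefSeq promoters used here (GRCh38.p14) matched 7 of the 10 genes, all but MLST8, AKT1S1 and DEPTOR, and each line below runs 5′ to 3′ on the gene's own strand and ends at the base before the annotated gene start. Capitals mark matches on either strand to the E-box CACGTG, to the FOXO motif GTAAACA, to the GC box GGGCGG or to the CCAAT box, which has the letters of its name.
RPTOR, chr17:80544588-80544818, plus strand: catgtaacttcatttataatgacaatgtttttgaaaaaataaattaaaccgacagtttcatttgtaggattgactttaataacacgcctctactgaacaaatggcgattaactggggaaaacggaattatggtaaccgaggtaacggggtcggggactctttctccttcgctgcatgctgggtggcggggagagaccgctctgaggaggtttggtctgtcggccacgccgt
RICTOR, chr5:39074409-39074649, minus strand: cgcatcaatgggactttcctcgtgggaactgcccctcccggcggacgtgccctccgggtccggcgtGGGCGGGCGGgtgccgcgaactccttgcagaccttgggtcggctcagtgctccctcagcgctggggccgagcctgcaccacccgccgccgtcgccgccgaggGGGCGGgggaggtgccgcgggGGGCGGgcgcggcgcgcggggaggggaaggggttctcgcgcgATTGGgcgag
TELO2, chr16:1493110-1493343, plus strand: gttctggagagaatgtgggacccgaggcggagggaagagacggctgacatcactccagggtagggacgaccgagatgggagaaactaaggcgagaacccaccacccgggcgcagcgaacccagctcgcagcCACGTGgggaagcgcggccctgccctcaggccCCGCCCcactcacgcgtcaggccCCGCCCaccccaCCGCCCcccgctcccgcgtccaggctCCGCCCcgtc
The RPTOR stretch held none of these letters, with a GC content of 47.2% over the full RefSeq window of 250 bases. RICTOR had 4 GC boxes, 2 of them overlapping, and 1 CCAAT box at a GC content of 76.0%, and TELO2 had 1 E-box and 4 GC boxes at 72.4%. Over all 35116 promoter windows of that length, 6.34% held the E-box, 2.98% the FOXO motif, 42.6% the GC box and 32.0% the CCAAT box. PRR5, also called higher, had several windows that are not shown. They held from 0 to 8 GC boxes, and 1 of them held an E-box. The windows of MTOR, MAPKAP1 and TTI1, which like RICTOR did not pass the threshold, are not shown either. MTOR had 1 GC box and 3 CCAAT boxes, MAPKAP1 had 1 GC box, and TTI1, like RPTOR, held none of these letters. A match describes the letters and is not a binding site.

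The kinase itself, MTOR (Entrez 2475, chr1:11106535-11262507, minus strand), did not pass the threshold. Its counts were 1551, 1576 and 1680 in WT replicates 1 to 3 and 1832, 2027 and 1710 in MLST8-KO replicates 1 to 3. Once scaled for depth the groups overlapped, at 111 ± 9.39 CPM in WT and 118 ± 7.87 CPM in MLST8-KO samples (SD, n = 3 each). MTOR's log2 fold change of 0.09 (SE 0.09, adjusted p = 0.482 by edgeR's test) had a 95% interval of -0.11 to 0.28.

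MAPKAP1 (SIN1; Entrez 79109, chr9:125437393-125707234, minus strand), the mTORC2 subunit that recruits AKT, had the change closest to 0 of the 10 genes. WT replicates 1 to 3 held 148, 122 and 136 CPM, and MLST8-KO replicates 1 to 3 held 133, 138 and 144 CPM. The MLST8-KO values lay inside the WT range. The log2 fold change was 0.03 (95% interval -0.16 to 0.23, adjusted p = 0.801 by edgeR's test), and its sign turned to -0.04 without WT replicate 2 and to -0.0002 without MLST8-KO replicate 3.

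PRR5 (PROTOR1; Entrez 55615, chr22:44668547-44737681, plus strand), which binds RICTOR in mTORC2, was 1.52-fold higher in MLST8-KO cells. WT replicates 1 to 3 had 19.3, 13.9 and 11.0 CPM and MLST8-KO replicates 1 to 3 had 23.7, 19.3 and 24.5 CPM. The groups met at the edge, with MLST8-KO replicate 2 just below WT replicate 1. That is 0.60 on the log2 scale (SE 0.18, 95% interval 0.20 to 1.01), with an adjusted p of 0.031 by edgeR's test. The call did not hold in 4 of the 6 fits that left out a sample: adjusted p was 0.109 without WT replicate 2, 0.052 without WT replicate 3, 0.100 when MLST8-KO replicate 1 was left out and 0.106 for MLST8-KO replicate 3. PRR5 is uncertain in a further way, since the read-through gene PRR5-ARHGAP8 covers 35449 bases of it on the same strand and both had counts that were not whole. That gene had 9.98, 7.79 and 26.2 counts in WT and 5.27, 0 and 6.11 counts in MLST8-KO samples.

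PRR5L (PROTOR2), the paralog of PRR5 and an alternative mTORC2 partner, was also higher, from a low level. It had 17, 12 and 6 counts in WT replicates 1 to 3 and 36, 31 and 46 counts in MLST8-KO replicates 1 to 3. Every MLST8-KO sample lay above every WT sample. PRR5L had a log2 fold change of 1.57 (SE 0.34, 95% interval 0.81 to 2.32, adjusted p = 0.00909 by edgeR's test), and it passed without each sample in turn, with a highest adjusted p of 0.0404. Per length, PRR5L reached 1.02 to 1.5 TPM in MLST8-KO cells, against 21.7 to 26.3 TPM for PRR5.

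Of the inhibitory subunits, AKT1S1 (PRAS40; Entrez 84335, chr19:49869033-49878459, minus strand), an AKT substrate that restrains mTORC1, did not pass the threshold. Its CPM was 128, 129 and 139 in WT replicates 1 to 3 and 115, 124 and 129 in MLST8-KO replicates 1 to 3. The groups overlapped only at the edge. AKT1S1 had a log2 fold change of -0.11 (SE 0.08, 95% interval -0.28 to 0.07, adjusted p = 0.321 by edgeR's test), and of -0.06 without MLST8-KO replicate 1. Its annotated span overlaps TBC1D17 on the other strand.

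DEPTOR (Entrez 64798, chr8:119873717-120050913, plus strand), which binds mTOR and inhibits both complexes, was the least abundant of the 10. It had 44, 34 and 29 counts in WT replicates 1 to 3 and 76, 40 and 49 counts in MLST8-KO replicates 1 to 3. MLST8-KO replicate 1, the library that stood apart, had the highest value, and the other values overlapped between the groups. The log2 fold change of 0.51 (SE 0.28, 95% interval -0.11 to 1.13) had an adjusted p of 0.182 by edgeR's test, and without MLST8-KO replicate 1 it was 0.19 (adjusted p = 0.643). With 29 to 76 counts per library, its interval was the widest of the 10 genes.

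Of the assembly factors, TELO2 (Entrez 9894, chr16:1493344-1510457, plus strand) was 1.39-fold higher in MLST8-KO cells. It had 256, 214 and 192 counts in WT replicates 1 to 3 and 308, 310 and 381 counts in MLST8-KO replicates 1 to 3. The groups did not overlap, at 15.2 ± 1.61 CPM in WT and 21.1 ± 2.84 CPM in MLST8-KO samples (SD, n = 3 each). On the log2 scale TELO2 rose by 0.48 (SE 0.13, 95% interval 0.19 to 0.76, adjusted p = 0.021 by edgeR's test). Its log2 fold change was 0.45 (adjusted p = 0.0841) without WT replicate 2, 0.52 (adjusted p = 0.0532) when MLST8-KO replicate 1 was left out and 0.36 (adjusted p = 0.0768) for MLST8-KO replicate 3, so the call was lost in 3 of the 6 fits. TELO2 overlaps IFT140 by 31 bases.

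TTI1 (Entrez 9675, chr20:37983007-38033468, minus strand), the partner of TELO2 in the TTT complex, did not pass the threshold. Its CPM was 48.7, 47.3 and 45.1 in WT replicates 1 to 3 and 53.0, 50.3 and 48.5 in MLST8-KO replicates 1 to 3. MLST8-KO replicate 3 lay just below WT replicate 1, and the other MLST8-KO samples lay above all WT samples. TTI1 had a log2 fold change of 0.11 (SE 0.08, 95% interval -0.07 to 0.28, adjusted p = 0.331 by edgeR's test). Whether TELO2 and TTI1 differed in their change was not tested.

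The wider machinery was read from 28 genes in hand-written lists. By edgeR's test 3 were higher and 6 lower, 32.1% in all, against 32.0% of all genes tested, and the median change was 0.01 on the log2 scale. Of 8 further PIKK assembly chaperones (TTI2, RUVBL1, RUVBL2, RPAP3, PIH1D1, WAC, HSP90AA1 and HSP90AB1), 0 passed in either direction by edgeR's test or by DESeq2, and 1 was higher at an unadjusted p under 0.05 by each. That gene was PIH1D1, an R2TP subunit that bridges to TELO2, at a log2 fold change of 0.35 (adjusted p = 0.0892). With limma on TPM, 3 of the 8 were called higher.

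The CCT chaperonin folds WD-repeat proteins such as MLST8, with PDCL as a cofactor. Of these 9 genes, 4 were lower (44.4%, against 15.7% of all genes tested) and 0 higher by edgeR's test, also 0 higher at an unadjusted p under 0.05 and by DESeq2, and no test of the list was made. Their median log2 fold change was -0.05. The 4 were TCP1 (log2 fold change -0.30, adjusted p = 0.0174), CCT8 (-0.26, adjusted p = 0.0235), CCT4 (-0.24, adjusted p = 0.0458) and CCT6A (-0.26, adjusted p = 0.0494), all ring subunits. The 5 others, CCT2, CCT3, CCT5, CCT7 and PDCL, did not pass. In the 4 lower genes and in CCT7, all MLST8-KO samples lay below all WT samples in CPM. That was 5 of the 9 genes, against 24.2% of all genes tested. In TPM the groups overlapped for CCT4 and CCT6A, and CCT7 was higher in every MLST8-KO sample than in any WT sample. None of the 9 passed with limma on TPM.

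Among 5 other PIKK kinases, clients of the same assembly pathway, PRKDC (DNA-PKcs) was higher at a log2 fold change of 0.34 (adjusted p = 0.0425 by edgeR's test) and ATR at 0.31 (adjusted p = 0.0460), while ATM, SMG1 and TRRAP did not pass (2 of 5 higher, against 16.3% of all genes tested). Among 5 ubiquitin pathway genes tied to mTOR complex turnover or to MLST8 (TRAF2, OTUD7B, BTRC, CSNK1A1 and FBXW7), 2 were lower by edgeR's test, against 15.7% of all genes tested. FBXW7, a ubiquitin ligase subunit that targets mTOR, stood at -0.35 (adjusted p = 0.0327) and CSNK1A1, a kinase that primes DEPTOR for degradation, at -0.22 (adjusted p = 0.0420). TRAF2 and OTUD7B, which add and remove ubiquitin on MLST8, stood at -0.09 and 0.02 and did not pass. Without MLST8-KO replicate 1, none of the 8 CCT, PIKK or ubiquitin genes past the threshold kept its call, with adjusted p from 0.051 (TCP1) to 0.152 (CSNK1A1), although the changes were of like size there (TCP1 -0.33, CCT4 -0.29, CCT6A -0.29, CCT8 -0.28, FBXW7 -0.38, CSNK1A1 -0.19, ATR 0.30 and PRKDC 0.36 on the log2 scale). The 6 lower ones also lost their calls without WT replicate 2 or either other MLST8-KO sample, and ATR and PRKDC without WT replicate 2, WT replicate 3 or MLST8-KO replicate 2. Of these 8 genes, FBXW7 (adjusted p = 0.0532) and ATR (adjusted p = 0.0731) did not pass with DESeq2. With upper quartile scaling ATR, PRKDC and, of the lower genes, only TCP1 passed. With the replicate block CCT4, CCT6A, CSNK1A1 and ATR did not pass, and with limma on log2(TPM + 1) only PRKDC did.

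**Figure D4:**
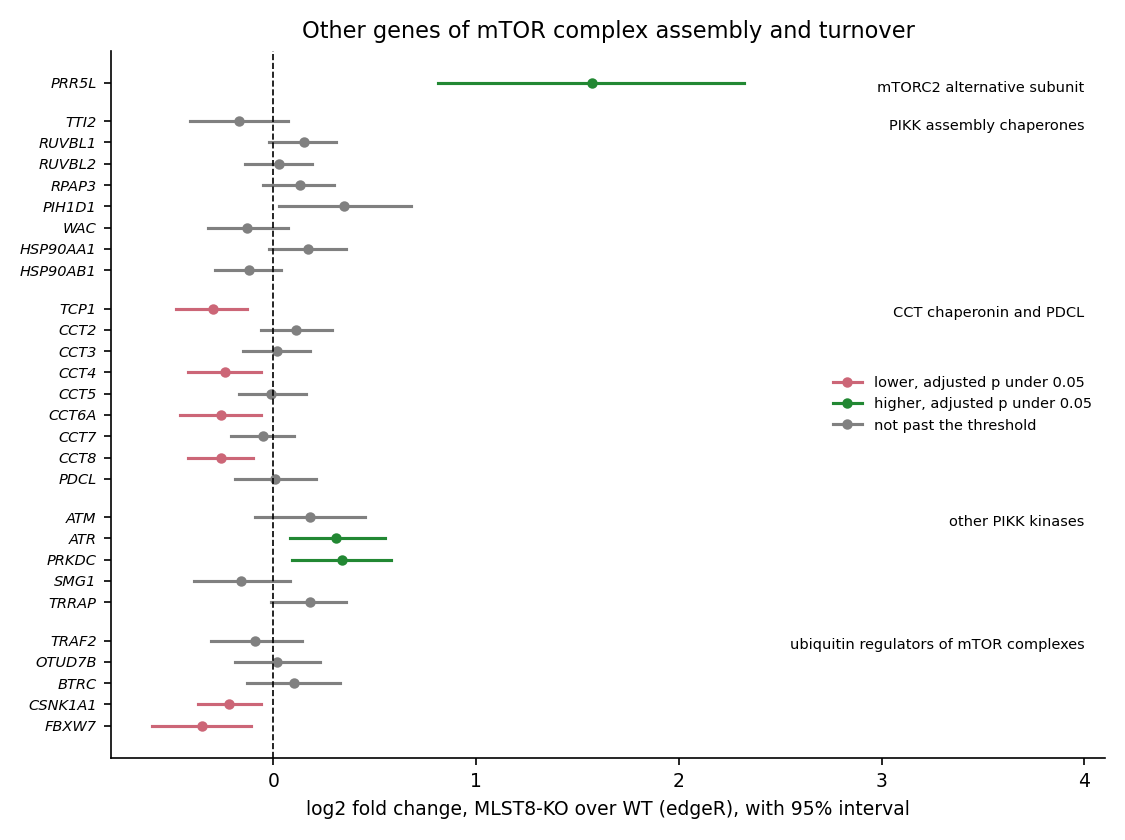
Log2 fold change in MLST8-KO over WT cells for the 28 genes of the assembly and turnover lists, with points for the edgeR estimate and lines for the 95% interval. PRR5L stands at 1.57, 4 CCT subunits and 2 ubiquitin regulators are past the threshold on the lower side, and ATR and PRKDC on the higher side.

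The genes beside MLST8 on chromosome 16 were read as the local background of the targeted site. Of 11 genes tested within 100 kb, 2 were lower and 0 higher by edgeR's test, or 18.2% in either direction against 32.0% of all genes tested, and the median change was -0.10 on the log2 scale. At an unadjusted p under 0.05, 1 was higher, and DESeq2 called 0 higher and 1 lower. RNPS1, a splicing factor, stood at -0.37 (adjusted p = 0.0202 by edgeR's test) and the lipid transporter ABCA3 stood at -0.47 (adjusted p = 0.0439). Neither passed without MLST8-KO replicate 1 (RNPS1 -0.32, adjusted p 0.0889, and ABCA3 -0.50, adjusted p 0.0941) or without MLST8-KO replicate 2 (-0.33 and -0.34, adjusted p 0.0784 and 0.135). ABCA3 also did not pass without WT replicate 2 (-0.49, adjusted p 0.103) or WT replicate 3 (-0.41, adjusted p 0.098). PGP, the nearest gene beyond BRICD5, had a log2 fold change of -0.06 (adjusted p = 0.676).

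**Figure D5:**
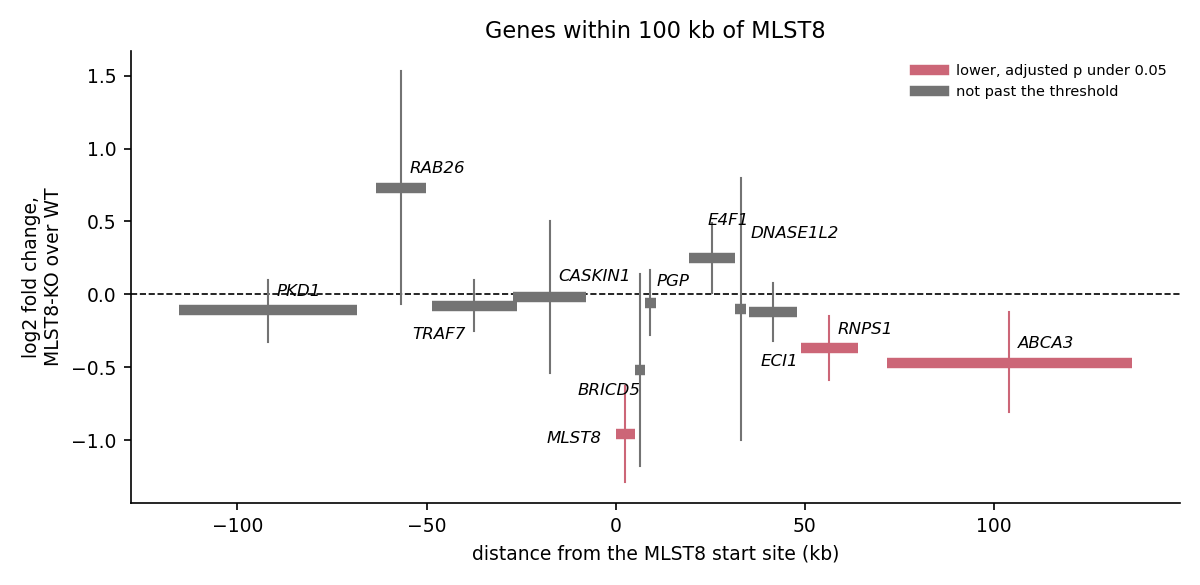
Log2 fold change of MLST8 and of the 11 genes within 100 kb of it, drawn against distance from the MLST8 start site in kb, with thick bars for each gene's annotated span and thin lines for the 95% interval. MLST8, at -0.96, was the lowest of the 12, and RNPS1 and ABCA3 were the neighbours past the threshold.

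By level per length, AKT1S1 and MAPKAP1 were the most abundant of the 10 genes in both groups. In WT cells the means ran from 129 TPM for AKT1S1 through MAPKAP1 (108), MLST8 (62.6), MTOR (24.0), TTI1 (22.9), PRR5 (15.2), RICTOR (13.4), RPTOR (10.5) and TELO2 (8.95) to DEPTOR (1.48). The samples of MTOR and TTI1, of PRR5 and RICTOR, and of RPTOR and TELO2 overlapped as neighbours in that order. In MLST8-KO cells the order was AKT1S1 (127 TPM), MAPKAP1 (114), MLST8 (35.1), MTOR (27.5), TTI1 (26.5), PRR5 (24.7), RPTOR (14.8), TELO2 (13.0), RICTOR (12.8) and DEPTOR (2.27). MLST8 kept its place after MAPKAP1, and its lowest sample, 28 TPM, lay below the highest MTOR sample, 29.9 TPM, which was not so in WT. RPTOR and TELO2 stood above RICTOR there, but the samples of both overlapped those of RICTOR, as did those of MTOR with TTI1 and of TTI1 with PRR5. TPM values of MLST8-KO samples were shifted upward, by a median of 0.092 over all genes on the log2(TPM + 1) scale.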

How the data were processed

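Values came from 3 WT and 3 MLST8-KO samples of HCC2814, grouped by their titles; the series' design text calls them biological replicates made in separate experiments. The labels and the study's methods name different RNA extraction kits. Reads had been filtered by the authors, mapped to GRCh38.p12 using HISAT and to gene sequences using BowTie2 (versions not given in the sources used here). The authors deposited estimated counts, TPM and FPKM per gene. The deposited TPM and FPKM are scaled for length and depth, and FPKM was not used here. A second file holds the authors' own fold changes with p-values and was not used. Of the estimated counts, 12.4% were not whole, so they were rounded. A set of 25 symbols turned into dates was restored by Entrez identifier. Positions are GENCODE's for GRCh38, found for 16983 genes.

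MLST8-KO was compared with WT using edgeR 4.0.16 in R 4.3.3 (TMM, filterByExpr by group, glmQLFit and glmQLFTest, no block), with Benjamini-Hochberg adjustment over 12951 genes and a threshold of 0.05. Intervals are 95% intervals of the fit. Ratios of TPM were compared by exact permutation with scipy 1.17.1. Results were recomputed with DESeq2 1.42.0, with limma 3.58.1 on log2(TPM + 1) or log2(TPM + 0.1), and within edgeR after upper quartile scaling, with the size factors of DESeq2, without the filter, with a minimum of 10 counts in each sample, with the replicate number as a block, and with each of the 6 samples dropped. Replicates of a group differed by more than sampling noise (chi-square per gene 6.83 to 26.7). The fit was tested on simulated data. Genes named are the 10 members, PRR5L, members of each list past the threshold (the 4 with the smallest p where more passed), neighbours past the threshold, and the 5 genes correlating best with MLST8 among those with a mean of at least 50 counts. PIH1D1, PGP, TRAF2, OTUD7B and overlapping genes were named after their values were seen. Some items are not reported here. The members and lists were chosen with earlier results of these data known.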

Additional observations from a re-analysis of the deposited data

How the results depend on the processing

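MLST8 and RPTOR kept their direction and call in all 14 alternatives, and MTOR, RICTOR, AKT1S1, DEPTOR and TTI1 stayed short of the threshold with the same direction in all 14. MAPKAP1, never past the threshold, ranged from -0.04 to 0.10 when 1 sample was left out, turning negative without WT replicate 2 (-0.04) or MLST8-KO replicate 3 (-0.0002). On leaving out 1 sample, PRR5 ranged from 0.43 to 0.85 and TELO2 from 0.36 to 0.56, members higher from 1 to 3, genes of the assembly and turnover lists higher from 1 to 4 and lower from 0 to 6, and neighbours of MLST8 higher from 0 to 1 and lower from 0 to 2. The lower calls of the lists all failed without WT replicate 2 or any 1 MLST8-KO sample. In each of these fits 5 genes of the lists were lower at an unadjusted p under 0.05. Without MLST8-KO replicate 2, 1 of the 5 was a PIKK assembly chaperone, which was not among the 6 lower calls. Over all genes, higher calls ranged from 971 (without WT replicate 2) to 2692 (without WT replicate 1) and lower calls from 850 (without MLST8-KO replicate 1) to 2651 (without WT replicate 1), against 2116 and 2030. The share of calls that were higher was 51.0% with TMM, 62.0% with upper quartile scaling and 71.0% with limma on log2(TPM + 1). Limma on log2(TPM + 1) and log2(TPM + 0.1) gave 1134 and 1132 lower genes, 5 higher and 0 lower genes of the lists under each (1 lower at an unadjusted p under 0.05), and 1 higher and 1 lower neighbour under each. Upper quartile scaling gave 1 lower gene of the lists and 1 lower neighbour, and DESeq2 gave 1 lower neighbour. With the replicate block, 2261 genes were higher and 2157 lower, members were again 3 higher and 1 lower, and 3 genes of the lists were lower. Same-numbered samples had correlations of 0.105, 0.057 and 0.14 in their deviations from the group means, each the highest for its number, which is a hint from the data. Not all 3 were over 0.1 and no source names a shared batch or day, so the numbers were not taken to pair the samples. PRR5L was not testable with at least 10 counts in every sample. DEPTOR and PRR5L rested on low counts. The causes of these changes were not tested.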

Other observations

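The genes whose levels ran closest to MLST8 over the 6 samples were PUS10, YPEL5, YOD1, CSNK1A1 and FTO, out of 11182 compared in log2 CPM. Their Pearson correlations with MLST8 were 0.9956 for PUS10, 0.9956 for YPEL5, 0.9954 for YOD1, 0.9939 for CSNK1A1 and 0.9932 for FTO. The points are 6 libraries that share the contrast of 2 groups, and the values are given as a description. YOD1, a deubiquitinase, had a log2 fold change of -0.54 (adjusted p = 0.0056 by edgeR's test) and PUS10, a pseudouridine synthase, -0.47 (adjusted p = 0.0311). YPEL5 (-0.14, adjusted p = 0.155) and the RNA demethylase FTO (-0.13, adjusted p = 0.306) did not pass the threshold.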
